A study of Rattus norvegicus with 12 samples.

Results

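The comparison asked which transcripts differed after REST was reduced in transit amplifying progenitors (TAPs), the proliferating state of a neural stem cell culture. HCN cells are neural stem cells taken from the hippocampus of the adult rat and expanded through several passages. Kept with the growth factor FGF2 alone they divide (TAP condition), and kept with FGF2 and BMP4 they enter an induced quiescence (iQNP condition). TAP control cells were electroporated with an empty vector and are represented by 2 libraries, and TAP knockdown cells were electroporated with a vector that encodes a short hairpin RNA against Rest and are represented by 4. Quiescent iQNP cells with the same pair of vectors, 2 and 4 libraries, were used only for comparison. The control vector carried no hairpin, so the effect of any hairpin and the effect of losing REST cannot be told apart. The sources used here do not say whether the libraries of a group came from separate cultures. RNA was total RNA depleted of ribosomal RNA.

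Genes were chosen from the TAP table of 16468 genes as those which the authors' Cuffdiff run marked as testable (status OK), which left 9430, against 9662 in the iQNP table. Each gene has 1 pooled value per group, in FPKM (fragments per unit of transcript length and of mapped depth), made by the authors from all libraries of the group. No value per library and no depth per library was used here, so no value below has an error, no test across libraries could be made, and every difference is a description of 2 pooled values. The difference is given as log2 of (knockdown FPKM + 1) over (control FPKM + 1), called the log2 ratio, and a gene is called higher or lower when this passes 2-fold (a log2 ratio of 1 or -1). Where a gene is given with levels joined by "to", the first is its control level and the second its knockdown level. Because 1 is added to both values, the ratio understates the change of weakly expressed genes, and a gene at or under 1 FPKM in control cannot be called lower. All 52 tested genes listed at 0 in control were called higher, 15 of them at over 100 FPKM in knockdown. Whether such a gene was tested can depend on its knockdown level.

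REST is a zinc finger repressor that binds a DNA element, the RE1, in and near neuronal genes and recruits corepressor complexes (the RCOR and SIN3 scaffolds with histone deacetylases and demethylases). It is abundant in stem cells and most cells outside the nervous system, and its loss during neuronal differentiation is known to release genes for synaptic vesicles, secretory granules, ion channels and the neuronal cytoskeleton. In the adult hippocampus it is known as a factor that holds neural stem cells in their undifferentiated state.

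The following promoter windows show what such an element looks like upstream of genes that stood higher after knockdown. The RE1 was searched as its left part TTCAGCACC followed after 2 bases by its right part GGACAGCGC, on both strands and with up to 3 mismatches in all over the 2 parts of 9 bases. Windows run from 250 bases before to 50 bases after the annotated start of transcription, are taken from RefSeq (assembly GRCr8) and read 5′ to 3′ along the gene's strand, with the matched stretch of 20 bases in capitals. Of the 9430 tested genes 7696 had such a window, and 12 of these (0.156%) held a match, against 34 of all 33469 windows in the RefSeq table (0.102%). The first 2 windows are those of Vgf (log2 ratio 4.25, chr12:25276971-25277270, minus strand) and Celsr3 (log2 ratio 2.96, chr8:118408886-118409185, plus strand), whose matches had 1 and 2 mismatches.
Vgf: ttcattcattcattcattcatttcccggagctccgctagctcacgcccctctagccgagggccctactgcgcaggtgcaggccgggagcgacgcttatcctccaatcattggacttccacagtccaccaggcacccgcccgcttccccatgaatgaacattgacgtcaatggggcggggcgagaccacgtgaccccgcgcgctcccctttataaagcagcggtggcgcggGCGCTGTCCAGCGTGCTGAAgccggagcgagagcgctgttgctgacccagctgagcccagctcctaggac
Celsr3: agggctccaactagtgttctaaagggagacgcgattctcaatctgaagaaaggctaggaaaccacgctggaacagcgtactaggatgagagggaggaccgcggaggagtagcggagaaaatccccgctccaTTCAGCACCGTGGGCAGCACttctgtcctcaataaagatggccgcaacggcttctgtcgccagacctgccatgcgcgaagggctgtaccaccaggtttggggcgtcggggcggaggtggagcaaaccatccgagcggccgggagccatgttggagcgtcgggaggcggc
On the Vgf window the element lies on the opposite strand, directly before the start, and reads TTCAGCACGctGGACAGCGC in its own direction. Among the 12 genes with a match, 6 were called higher (Vgf, Celsr3, Ttc9b, Ogdhl, Scamp5 and Lama5), 1 lower (Omg, a myelin glycoprotein, 134 to 59.05 FPKM) and 5 neither. In the study's ChIP-seq, Vgf had a REST site within 1 kb of its start, and Celsr3 and Ogdhl had one at 1 to 10 kb. Ttc9b, Scamp5 and Lama5 had none listed within 10 kb. Of the genes not called higher only Fbll1 had a listed site within 10 kb. Matches were thus held by 0.503% of 1192 higher genes and by 1 of 515 lower genes with a window, counts too small to compare.

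A second arrangement was searched after the data had been seen, with the exact left part and the first 7 bases of the right part (GGACAGC) at any spacing from 0 to 10 bases. It was present in 9 of 7696 windows, and all 9 belonged to the 51 tested genes with a window and a REST binding site within 1 kb of the start, the class described under the binding sites. None of the other 7645 windows held it, and in the whole RefSeq table it was found in 12 of 33469. The windows of Scg2 (chr9:88256817-88257116, minus strand) and Disp2 (chr3:126215968-126216267, plus strand) are shown because both genes were higher after knockdown and they differ in the distance between the parts, 0 and 7 bases. Capitals mark the 2 parts.
Scg2: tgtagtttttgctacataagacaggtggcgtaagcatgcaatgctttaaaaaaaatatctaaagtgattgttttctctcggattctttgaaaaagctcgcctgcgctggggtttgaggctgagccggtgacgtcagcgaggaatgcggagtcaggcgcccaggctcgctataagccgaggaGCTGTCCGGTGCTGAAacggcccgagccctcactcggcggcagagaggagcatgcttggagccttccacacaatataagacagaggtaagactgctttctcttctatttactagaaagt
Disp2: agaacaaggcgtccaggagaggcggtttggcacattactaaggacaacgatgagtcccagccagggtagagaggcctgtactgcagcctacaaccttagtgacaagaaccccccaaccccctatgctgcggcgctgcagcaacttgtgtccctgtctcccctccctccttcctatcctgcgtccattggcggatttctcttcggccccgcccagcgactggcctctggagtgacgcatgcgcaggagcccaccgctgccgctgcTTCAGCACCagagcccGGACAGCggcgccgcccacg
Of the 9 genes, 3 were called higher (Scg2, Sez6l2 and Disp2), and Trim67, Kcnh6, Tph2, Ptprn2, Unc13a and Cntnap5b were not. Among the 51 genes with a near site and a window 25 were higher, and over all tested genes 15.4%. Only Disp2, Trim67 and Ptprn2 were over 1 FPKM in control. At or under 1 FPKM the added 1 shrinks a ratio and no gene can be called lower. These counts are too small and too near the floor to relate the letters to a call. Unc13a, which primes synaptic vesicles, held TTCAGCACCgggggcgcGGACAGC in the direction of the motif and stood at 0.926 FPKM in control and 0.351 FPKM in knockdown. A match is a description of letters and does not show binding, and the absence of a match in these 300 bases says nothing about sites further away.

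Rest itself (chromosome 14, 33136045 to 33151142 in rn4, the rat build of the tables) stood at 27.8 FPKM in TAP control and 9.002 FPKM in TAP knockdown, 67.6% lower. In iQNP cells it moved from 48.7 to 13.9 FPKM (log2 ratio -1.74 against -1.53 in TAP). Over the 9430 genes, 1452 were called higher (15.4%) and 632 lower (6.7%), and the median log2 ratio was 0.01. These percentages are the background for every count below. The sum of FPKM over all genes was 1.52 times larger in knockdown, and the genes for cytosolic ribosomal proteins took 11.8% of it in control and 35.9% in knockdown. Scaled to the same sum, the calls became 655 higher and 2415 lower, and the share of higher genes among the calls went from 69.7% to 21.3%. This scaling moves the log2 ratio of well expressed genes by about -0.61 and that of weakly expressed genes by less, because of the added 1. With ribosomal protein genes left out of the sums the shift was -0.15 and the calls were 1214 and 922 (56.8% higher). Values below are as deposited, and a list whose median changes sign under either scaling is marked as such where it is described.

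Genes with a REST binding site close to their start were higher more often than the background. The study mapped REST binding in TAP cells by ChIP-seq, an assay independent of the RNA values, and genes were grouped by the distance from their start to the nearest site. Of 112 genes in the table with a site within 1 kb, 69 were tested, of which 33 were higher (47.8%, background 15.4%) and 2 lower (2.90%, background 6.7%), with a median log2 ratio of 0.87. With a site at 1 to 10 kb, 73 of 118 genes were tested, 16 were higher (21.9%) and 1 lower, with a median of 0.37, or -0.05 when both groups had the same sum. With a site beyond 10 kb, 27 of 239 were higher (11.3%) and 19 lower, with a median of -0.11. The 9049 tested genes with no listed site had 15.2% higher and a median of 0.01, which became -0.53 and -0.13 under the 2 scalings. The median of the genes with a site within 1 kb stayed above 0 under both (0.46 and 0.74), although a scaling moves the ratios of weakly expressed genes less.

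**Figure D1:**
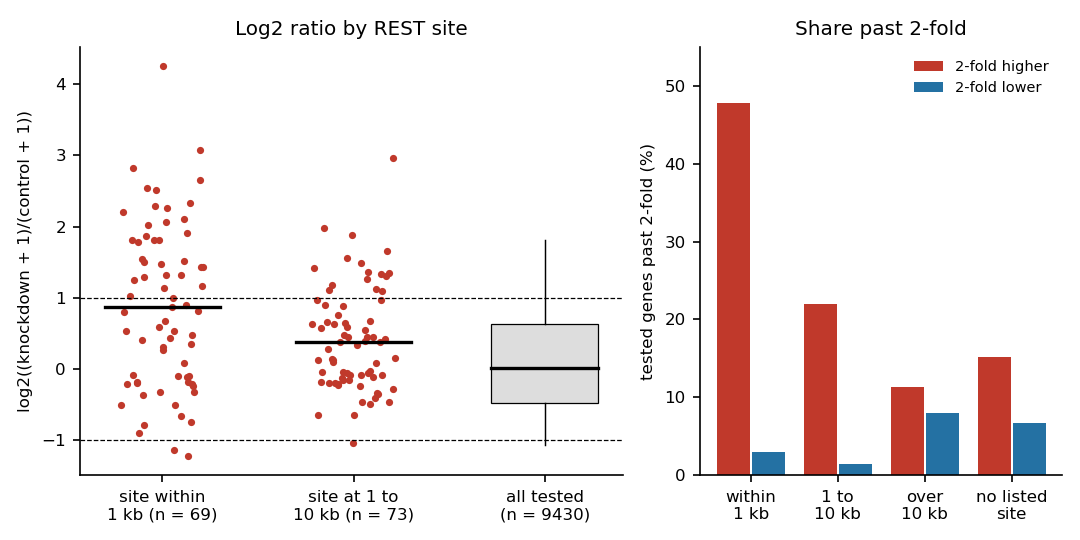
Left, log2 ratio of knockdown to control (pooled FPKM + 1) of single genes with a REST ChIP-seq site within 1 kb or at 1 to 10 kb of their start, with bars at the medians (0.87 and 0.37), beside a box of all tested genes (median, quartiles, whiskers at percentiles 5 and 95) and dashed lines at 2-fold. Right, the percentage of tested genes past 2-fold by distance to the nearest site, which falls for higher genes from 47.8% within 1 kb to 11.3% beyond 10 kb, with 15.2% for genes with no listed site.

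Genes with a near site were weakly expressed, with a median control level of 1.501 FPKM against 20.3 FPKM for genes with no listed site, and weakly expressed genes were higher more often in general. Level was therefore held apart. At or under 1 FPKM in control, 13 of 31 genes with a site within 1 kb were higher (41.9%) and 173 of 346 of all tested genes (50%), so no excess was seen there. Whether a gene this low was tested can depend on its knockdown level, and these 2 counts support nothing. From 1 to 10 FPKM the counts were 13 of 25 (52.0%) against 512 of 2715 (18.9%), and above 10 FPKM they were 7 of 13 (53.8%) against 767 of 6369 (12.04%). The excess was thus found among genes already expressed in control TAPs.

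Among the 10 largest log2 ratios with a site within 1 kb were Vgf, Sst, Scg2, Chga and Snap25, of the granin or synaptic vesicle lists. Other members of these lists with such a site lay below 0, namely Unc13a (-0.51), Cplx2 (-0.50), Ptprn2 (-0.22) and Slc17a6 (-0.08). Vgf, a neurotrophin-induced granule protein, was at 0.427 FPKM in control and 26.1 FPKM in knockdown. Slc39a3, a zinc importer, moved from 2.71 to 30.2 FPKM, log2 ratio 3.07. The neuropeptide somatostatin, Sst, moved from 0.705 to 11.03 FPKM, log2 ratio 2.82. Vgf, Sst, Scg2 and Chga were under 1 FPKM in control, so their level after knockdown is what their ratios rest on. Scg2, a granin of dense core vesicles, moved from 0.168 to 6.36 FPKM, log2 ratio 2.66, and Chga, another granin, from 0.249 to 5.26 FPKM, log2 ratio 2.32. Stmn3, which binds tubulin in neurons, moved from 29.4 to 176 FPKM, log2 ratio 2.54, and Gdap1l1 from 5.87 to 38.4 FPKM, log2 ratio 2.52. Snap25, a SNARE protein of vesicle fusion, went from 3.58 to 21.3 FPKM, log2 ratio 2.29. Sez6, a dendritic membrane protein, went from 7.74 to 40.98 FPKM, log2 ratio 2.26, and Chpf, which polymerizes chondroitin chains, from 12.9 to 63.5 FPKM, log2 ratio 2.21. Stmn3 and Chpf were well expressed before knockdown, which makes their ratio little dependent on the added 1. Further members were Lrp11 (8.63 to 39.2 FPKM), Resp18 (17.5 to 68.4 FPKM), the receptor-like phosphatase of secretory granules Ptprn (17.9 to 65.4 FPKM), Rtn2 (16.01 to 47.01 FPKM) and the small GTPase Diras1 (2.06 to 7.78 FPKM).

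With a site at 1 to 10 kb the largest ratios belonged to Celsr3, a seven-pass cadherin of axon tracts (1.25 to 16.5 FPKM), Rprml (2.19 to 11.5 FPKM), Dph2, an enzyme of diphthamide synthesis (1.87 to 9.59 FPKM), the pacemaker channel Hcn2 (3.16 to 12.1 FPKM) and Ogdhl (7.93 to 25.3 FPKM). The neuronal tubulin Tubb3 (21.4 to 58.9 FPKM) and the collagen gene Col5a3 (40.5 to 106 FPKM) were also among the higher genes. Lower genes were few. Pde4d, a cyclic AMP phosphodiesterase with a site within 1 kb, moved from 57.5 to 24.1 FPKM, log2 ratio -1.22, RT1-EC2, a class I gene listed at a locus it shares with another gene, from 4.96 to 1.701 FPKM, and Tbx15 (1 to 10 kb) from 1.21 to 0.0685 FPKM. Just inside the upper threshold of the nearest class lay Nxph1 (1.002) and just outside it Gsx1 (0.903), and on the lower side Gpr19 (-0.903) lay just outside.

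A list of 41 REST targets known from textbooks was chosen with earlier results of these data known. It also overlaps the genes with a binding site, so it is no independent support for their counts. Of 34 tested members 19 were higher (55.9%, background 15.4%) and none lower, with a median log2 ratio of 1.17 that was 0.62 with the same sum. Of the 19, 7 were at or under 1 FPKM in control, where 50% of all tested genes were higher and none could be lower, and at 1 FPKM or more in each group 12 of 25 targets were higher. The smallest ratio was that of Nefm, a neurofilament protein (2.65 to 1.104 FPKM, log2 ratio -0.79). The 24 members with a REST site within 10 kb had 17 higher and a median of 1.54, and the 10 without one had 2 higher and a median of 0.50. Another 6 members were not tested, among them Bdnf, listed at 0 in both groups, and Stmn2, at 0.206 and 0.248 FPKM. Just inside the threshold lay Mapk8ip1 (38.4 to 83.4 FPKM, log2 ratio 1.101) and just outside it Scg3 (99.9 to 184 FPKM, log2 ratio 0.87), a granin. Of the 34 tested targets 16 also belong to the genes with a site within 1 kb, so the counts overlap.

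**Figure D2:**
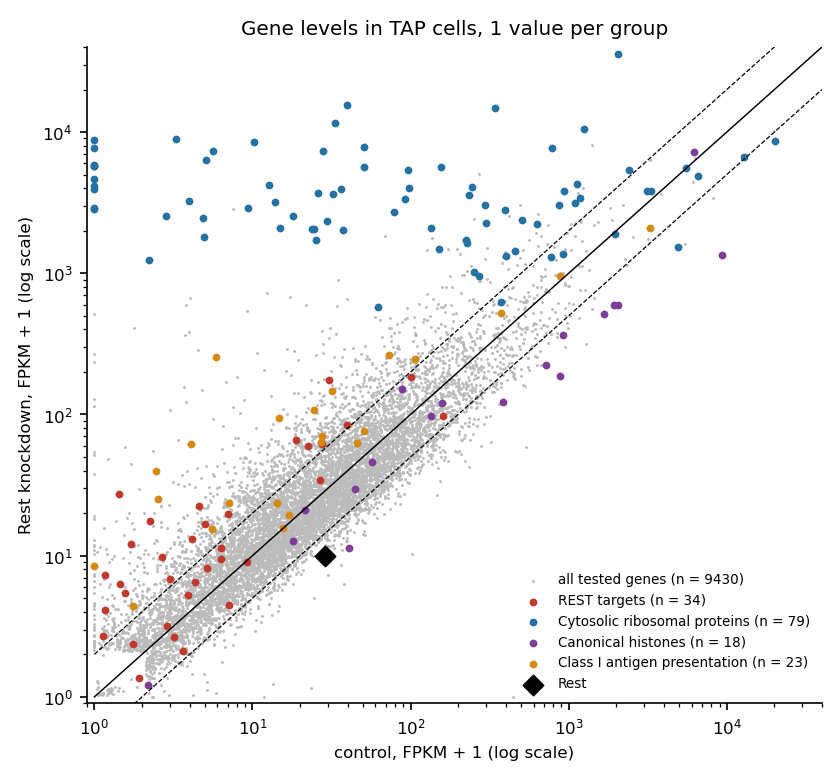
Pooled FPKM + 1 of every tested gene in TAP control (horizontal) and TAP knockdown (vertical), both on log axes, with 1 point per gene, no error available, a solid line at equal levels and dashed lines at 2-fold. REST targets and class I genes lie mainly above the solid line, canonical histones mainly below it, Rest (diamond, 27.8 and 9.002 FPKM) below the lower dashed line, and ribosomal protein genes form a band near the top at any control level.

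By role, of 14 tested granin and neuropeptide genes 8 were higher and none lower, with a median of 1.41 (0.84 with the same sum). Of the 8, Vgf, Sst, Scg2 and Chga were under 1 FPKM in control, where a gene cannot be called lower, and with at least 1 FPKM in each group 4 of 10 were higher. Besides Vgf, Sst, Scg2, Chga, Resp18 and Ptprn these were Chgb (1.69 to 8.82 FPKM, log2 ratio 1.87) and Nxph1, and 7 of the 8 had iQNP log2 ratios past 1 as well. Genes of synaptic vesicles and exocytosis had 9 of 34 higher and 1 lower, with a median of 0.30 that turned to -0.15 with the same sum. Higher members were Scamp5, a vesicle membrane protein (6.72 to 37.5 FPKM, log2 ratio 2.32), Snap25, the active zone scaffold Bsn (0.566 to 4.41 FPKM), Syt4 (3.98 to 15.9 FPKM), Rab3c (6.01 to 18.8 FPKM), Stx1a (2.31 to 7.24 FPKM) and Sv2a (9.63 to 24.1 FPKM). Syt1, the main calcium sensor of fast release and the most abundant synaptotagmin to be named here, moved the other way, from 148 to 40.998 FPKM, log2 ratio -1.82. Genes of synaptic vesicles were thus not uniformly higher.

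Voltage-gated and HCN channel genes had 3 of 28 higher and 1 lower, with a median of 0.14 that turned to -0.34 with the same sum, a share of higher genes below the background. Hcn2 and the N-type calcium channel Cacna1b (1.94 to 6.36 FPKM) were among the higher ones, and the lower one was Scn2b (12.7 to 4.98 FPKM). Receptors and transporters for transmitters had 5 of 17 higher and none lower (median 0.09, turning to -0.46 and -0.05 under the 2 scalings). These were Slc39a3, the nicotinic subunit Chrnb2 (0.167 to 3.102 FPKM), the kainate receptor subunit Grik5 (7.95 to 23.8 FPKM), the obligatory NMDA receptor subunit Grin1 (0.135 to 1.69 FPKM) and the AMPA receptor subunit Gria2 (26.5 to 60.7 FPKM, a gene that shares its listed locus with another). Not tested were 16 of the 44 channel genes and 26 of the 43 receptor and transporter genes in the table.

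Neuronal cytoskeleton genes had 6 of 25 higher and 2 lower (median 0.13, turning to -0.48 and -0.02 under the 2 scalings). Higher were Tmsb10, which binds actin monomers (488 to 3023 FPKM, a gene with a named pseudogene), Stmn3, Tubb3, Stmn1 (251 to 628 FPKM), the peripheral intermediate filament Prph (0.925 to 3.75 FPKM) and Crmp1 (30.96 to 67.5 FPKM). Lower were Map2, the dendritic microtubule protein (102 to 48.9 FPKM, log2 ratio -1.05), and the adhesion molecule Ncam1 (174 to 84.5 FPKM, log2 ratio -1.03). RNA-binding proteins known from neurons had 4 of 12 higher and 3 lower (median 0.18, turning to -0.16 with the same sum). Celf3 (0.666 to 7.86 FPKM, log2 ratio 2.41), Celf6, Msi1 (8.42 to 21.6 FPKM) and Elavl3 (9.81 to 21.02 FPKM) were higher, and the splicing regulators Mbnl1 (215 to 67.1 FPKM, log2 ratio -1.67) and Mbnl2 (268 to 92.3 FPKM, log2 ratio -1.52) and Elavl4 (11.3 to 4.71 FPKM) were lower. Related genes of 1 family, such as Elavl3 and Elavl4, thus had opposite directions.

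Proneural and neuronal transcription factors had 2 of 16 higher and 3 lower, with a median of -0.41. Higher were the repressor Scrt1 (0.4598 to 5.26 FPKM, log2 ratio 2.1), a REST target, and Hes6 (1.704 to 8.24 FPKM), which promotes neurogenesis, and lower were Tcf3, an E-protein partner of proneural factors (53.1 to 19.1 FPKM), Pou3f2 (33.3 to 15.1 FPKM) and Tcf4 (141 to 66.6 FPKM). Neurod1, a driver of neuronal differentiation, stood at 3.16 FPKM in control and 2.72 FPKM in knockdown, and Dcx, a marker of immature neurons, at 2.33 and 3.93. Over 15 neuron markers, 12 of which were tested, 3 were higher (Snap25, Tubb3 and Elavl3) and 2 lower (Map2 and Elavl4), with a median of 0.20 that turned to -0.24 with the same sum. The summed level of the list was 333 FPKM in control and 313 in knockdown.

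Among REST's own partners, 4 of 21 corepressor genes were higher and 2 lower, with a median of -0.02. Rcor2, a scaffold of the RCOR complex, moved from 0.772 to 10.7 FPKM, log2 ratio 2.72, and Hdac1, a histone deacetylase with named pseudogenes, from 38.2 to 80.8 FPKM, log2 ratio 1.06. Rbbp4 (6.53 to 113 FPKM) and Ctdsp1 (26.4 to 56.8 FPKM) were higher too, but both have named pseudogenes and share a listed locus. Rest was among the lower ones. The other 15 members did not pass 2-fold.

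**Figure D3:**
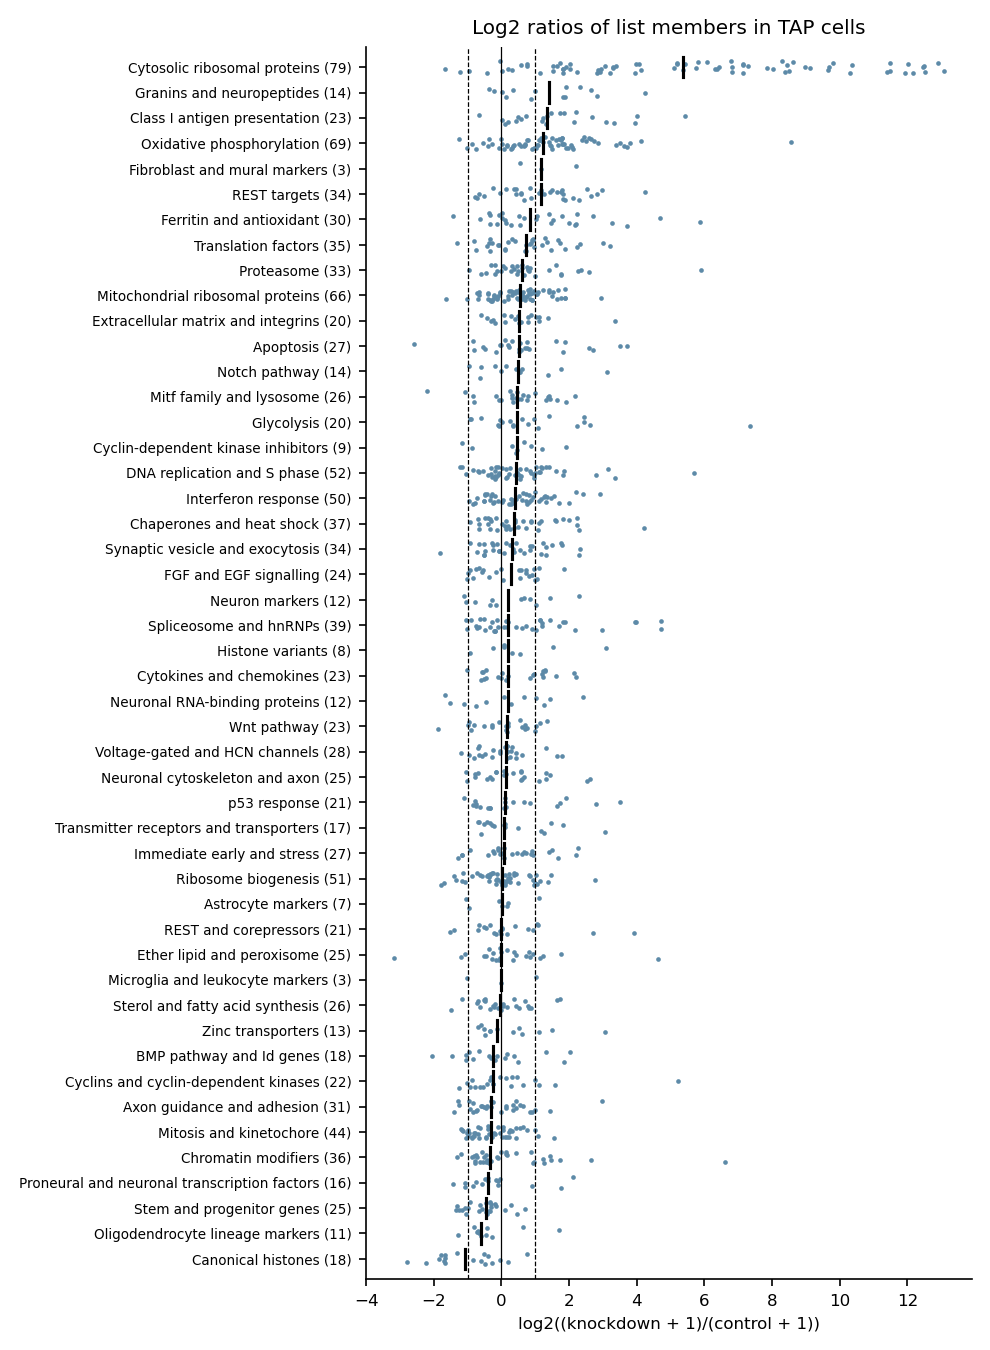
Log2 ratio of knockdown to control in TAP cells for the tested members (points, number in brackets) of 48 gene lists, ordered by their median (bar), with dashed lines at 2-fold. Cytosolic ribosomal proteins (median 5.37), granins (1.41) and class I antigen presentation (1.34) lie at the top, and canonical histones (-1.08) at the bottom.

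Stem and progenitor genes were shifted downward. Of 25 tested, none was higher and 6 were lower (24.0%, background 6.7%), with a median of -0.46. Lower were the SOX factor Sox6 (209 to 82.2 FPKM, log2 ratio -1.33), the homeobox gene Emx2 (8.68 to 2.93 FPKM, log2 ratio -1.302), the Hedgehog effector Gli3 (16.2 to 6.13 FPKM, log2 ratio -1.27), the growth regulator Myc (374 to 165 FPKM, log2 ratio -1.17), the Polycomb protein Bmi1 (177 to 82.6 FPKM, log2 ratio -1.09) and Foxo3 (17.4 to 7.88 FPKM, log2 ratio -1.05). Lower calls were in general more frequent at high control levels, at 16.7% from 100 to 300 FPKM and 21.4% above 300. Sox6, Myc and Bmi1 lay in these ranges. Emx2, Gli3 and Foxo3 lay between 3 and 30 FPKM, where 3.09% (3 to 10) and 4.29% (10 to 30) of tested genes were lower. The list was not compared at matched levels. The defining markers of the culture were present in both groups. Sox2 stood at 278 and 220.2 FPKM, nestin (Nes) at 99.8 and 89.6, Vim at 1219.6 and 1678, and Fabp7 at 1011 and 810.2, none past 2-fold. Pax6 was low in both groups (1.903 and 1.31 FPKM).

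Among the signalling lists, 21.4% of Notch, 16.7% of BMP, 12.5% of FGF and EGF and 13.04% of Wnt genes were higher (background 15.4%). No Notch gene was lower, against 22.2% of BMP, 4.17% of FGF and EGF and 4.35% of Wnt genes (background 6.7%). Whether the genes of a pathway moved together was not tested. Of 14 Notch genes 3 were higher and none lower (median 0.47, turning to -0.01 with the same sum), namely Lfng, a glycosyltransferase that modifies Notch receptors (0.781 to 14.6 FPKM, log2 ratio 3.13), the effector Hes1 (3.67 to 11.1 FPKM, log2 ratio 1.37) and Hes6. Of 18 BMP genes 3 were higher and 4 lower (median -0.24). The BMP-induced inhibitor Id3 (148 to 609.5 FPKM, log2 ratio 2.03), the receptor Acvr1 (2.47 to 11.5 FPKM) and the inhibitory Smad6 (0.9901 to 3.996 FPKM) were higher, while the ligand Bmp4 (35.1 to 7.61 FPKM, log2 ratio -2.07) and the transducers Smad5 (128 to 46.2 FPKM), Smad1 (64.7 to 30.7 FPKM) and Smad4 (74.1 to 35.3 FPKM) were lower. Of 24 FGF and EGF pathway genes 3 were higher and 1 lower (median 0.28, turning to -0.31 with the same sum), the effector Etv4 (9.6003 to 37.02 FPKM), Fgfr3 (29.97 to 65.2 FPKM) and the feedback inhibitor Spry2 (16.04 to 34.5 FPKM) against Fgf2 itself (2.49 to 0.719 FPKM). Of 23 Wnt genes 3 were higher, Fzd9, Dvl1 and Wnt7b, and 1 lower, the nuclear effector Lef1 (172 to 45.9 FPKM, log2 ratio -1.88), with a median of 0.18 that turned to -0.37 with the same sum.

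Axon guidance and adhesion genes had 2 of 31 higher (Celsr3 and the presynaptic adhesion gene Nrxn2, 4.702 to 14.4 FPKM) and 3 lower (the neuroligins Nlgn1, 19.9 to 6.95 FPKM, and Nlgn3, 73.7 to 30.4 FPKM, and the guidance cue Sema3c, 15.5 to 5.82 FPKM), with a median of -0.30. Extracellular matrix and integrin genes had 5 of 20 higher and none lower (median 0.51, turning to -0.03 with the same sum). The laminin chains Lama1 (0.0339 to 9.602 FPKM, log2 ratio 3.36) and Lama5 (6.86 to 15.8 FPKM), the collagen Col5a3, the brain proteoglycan Bcan (69.7 to 144 FPKM) and the integrin Itgb5 (5.16 to 12.4 FPKM, sharing a listed locus) were the higher ones.

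Cell cycle genes are given by phase. Of 52 genes for DNA replication and S phase 15 were higher and 3 lower (28.8%, background 15.4%), with a median of 0.43 that turned to -0.16 with the same sum. Rrm2, the regulated subunit of ribonucleotide reductase, was listed at 0 in control and at 50.8 FPKM in knockdown, and its partner Rrm1, which has a named pseudogene, was lower (452 to 193 FPKM, log2 ratio -1.23). Rrm2 belongs to the 52 tested genes listed at 0 in control, all called higher, and no weight is placed on its call. Tipin, of the replication fork protection complex (6.71 to 67.6 FPKM, log2 ratio 3.15), the fork helicase subunits Gins2 (1.35 to 15.2 FPKM, log2 ratio 2.79) and Gins1 (13.3 to 49.95 FPKM, log2 ratio 1.83) and the licensing factor Cdt1 (7.103 to 23.7 FPKM, log2 ratio 1.61) were higher, and Prim2 (66.7 to 28.9 FPKM) and Rfc1 (57.7 to 27.5 FPKM) were lower. Pcna stood at 214 and 317 FPKM and Mcm2 at 63.6 and 74.6, neither past 2-fold. Of 44 mitosis and kinetochore genes 2 were higher, the kinase Nek2 (5.598 to 18.2 FPKM) and Cdca3 (44.3 to 94.996 FPKM), and 6 lower, with a median of -0.32. The lower ones were Cenpf (65.1 to 27.9 FPKM), Tpx2 (325 to 144 FPKM), Aspm (82.96 to 37.4 FPKM), Cdca5 (76.8 to 36.3 FPKM), Incenp (109 to 53.5 FPKM) and topoisomerase Top2a (346 to 172 FPKM), all with log2 ratios from -1.20 to -1.005 and so near the threshold.

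Among cyclins and their kinases 3 of 22 were higher and 2 lower (median -0.25), with Ccnd1 (133 to 286 FPKM, log2 ratio 1.096) and Ccnd2 (71.9 to 35.01 FPKM, log2 ratio -1.02), both G1 cyclins, in opposite directions. Cks1b was at 27.99 to 85.1 FPKM, and Ccnb2, which has a named pseudogene, at 0.555 to 57.5 FPKM. Of 9 cyclin-dependent kinase inhibitors Cdkn1a, a p53 target (5.701 to 24.3 FPKM, log2 ratio 1.92), and Cdkn2a (82.97 to 189.9 FPKM, log2 ratio 1.19) were higher and Cdkn1b (369.97 to 165 FPKM, log2 ratio -1.16) was lower, with a list median of 0.45 that turned to -0.15 with the same sum. Canonical histone genes, whose transcripts lack a poly(A) tail and are made in S phase, were lower in 9 of 18 tested (50%, background 6.7%). None was higher, and the median was -1.08, with 16 log2 ratios below 0 and 2 above. Lower calls were more frequent at high control levels in general (21.4% of tested genes above 300 FPKM). The list was not compared at matched levels. Their summed level was 24657 FPKM in control and 11614 in knockdown. Hist2h4 moved from 9325 to 1353 FPKM, log2 ratio -2.78, Hist3h2a from 879 to 187 FPKM, log2 ratio -2.23 and Hist1h2bl from 2062 to 596 FPKM, log2 ratio -1.79. Replacement histone genes were not lower, with 2 of 8 higher (H2afz, 172 to 1485 FPKM, with a named pseudogene, and H2afj, 26.1 to 76.9 FPKM) and a median of 0.20 that turned to -0.41 with the same sum. Histone genes sit in clusters of near-identical copies, so their separate values are uncertain.

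Of the 15 largest rises 14 were in cytosolic ribosomal protein genes, and these values are uncertain. Of 79 tested, 68 were higher and 2 lower, with a median log2 ratio of 5.37 (4.07 without the 10 listed at 0 in control). Rpl37 moved from 2.27 to 8916 FPKM, Rpl21 from 4.59 to 7378 FPKM and Rps24 from 9.28 to 8522 FPKM. In TAP control the 80 genes of the list ranged from 0 to 20263 FPKM with a median of 84.6, and 21 lay under 10 FPKM, although proteins of 1 complex are known to be made in matched amounts. In knockdown 76 of them lay over 1000 FPKM, with a median of 3384. In iQNP control the median was 48.7 FPKM, so the low values were in both control groups. All 79 tested genes have named pseudogenes, near-identical copies between which reads can be split. Rpl23 (20263 to 8689 FPKM) and Rpl37a (4887 to 1527 FPKM) were lower. The part that pseudogenes played in these values was not tested.

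Of 69 oxidative phosphorylation genes 42 were higher and 2 lower, with a median of 1.24 (0.63 with the same sum), and 37 of the 69 have a named pseudogene. Cox5a, without one, moved from 29.7 to 346 FPKM, log2 ratio 3.497, and Ndufb7 from 63.5 to 464 FPKM, log2 ratio 2.85, while cytochrome c, Cycs, with one, moved from 29.9 to 407 FPKM, log2 ratio 3.72. Cox6c (8226 to 3422 FPKM) and Ndufb10 (314 to 155 FPKM), both with named pseudogenes, were lower. Mitochondrial ribosomal protein genes had 15 of 66 higher and 2 lower (median 0.56, turning to -0.04 with the same sum), with Mrpl14 (9.46 to 79.1 FPKM) and Mrps14 (19.2 to 73.7 FPKM) among the higher and Mrpl34 (299 to 94.2 FPKM) lower. Proteasome genes had 8 of 33 higher and none lower (median 0.60, turning to -0.00 with the same sum), such as Psmd13 (48.8 to 166 FPKM). Chaperones had 11 of 37 higher and none lower (median 0.36, turning to -0.24 with the same sum), such as Pfdn5 (239.7 to 1133 FPKM). Over all genes, 353 of the 1314 with a named pseudogene were higher (26.9%) and 74 lower, against 1099 of 8116 without one (13.5%) and 558 lower.

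Translation factors had 11 of 35 higher and 1 lower, with a median of 0.73. It became -0.36 once the 29 of the 35 with a named pseudogene were left out, a value that rests on few genes. Eif3f, a subunit of the initiation factor that recruits ribosomes, moved from 70.2 to 195 FPKM, and the scaffold subunit of the same factor, Eif3a, from 449 to 181 FPKM, log2 ratio -1.31. Ribosome biogenesis genes were split, with 6 of 51 higher and 7 lower and a median of 0.02 that turned negative under both scalings (-0.58 and -0.13). The nucleolar proteins Nhp2 (42.4 to 294 FPKM, log2 ratio 2.77) and Fbl (109 to 306 FPKM, log2 ratio 1.47) were higher and Imp3 (317 to 95.8 FPKM, log2 ratio -1.71), Utp3 (191 to 54.1 FPKM, log2 ratio -1.797) and nucleolin, Ncl (1405 to 554 FPKM, log2 ratio -1.34), were lower, of which only Imp3 has no named pseudogene. Spliceosome and hnRNP genes had 15 of 39 higher and 2 lower (median 0.20, turning to -0.41 with the same sum), with Lsm5 (31.8 to 254 FPKM) and Lsm6 (0.909 to 28.9 FPKM), ring subunits of the small ribonucleoproteins, higher and the large branch site factor Sf3b1 (195 to 93.3 FPKM) lower.

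Metabolic lists were mixed. Glycolysis had 7 of 20 higher and none lower (median 0.47, turning to -0.13 with the same sum and to -0.02 without genes that have a named pseudogene). The 7 higher genes, such as Gapdh (418 to 2549 FPKM), Ldha (175 to 948 FPKM) and Eno1 (167 to 796 FPKM), all have named pseudogenes. Of 26 genes of sterol and fatty acid synthesis 2 were higher and 2 lower, with the elongase Elovl6 at 232 to 82.1 FPKM (median -0.06). Peroxisome and ether lipid genes had 4 of 25 higher, such as Pex14 (14.1 to 32.4 FPKM, log2 ratio 1.15), and 3 lower, such as Pex7 (24.2 to 10.98 FPKM), with a median of -0.02 that turned to 0.15 without genes that have a named pseudogene. Of 26 lysosome genes 7 were higher, such as the cathepsin Ctsd (86.02 to 236 FPKM), and 2 lower, Lamp2 (239.8 to 112 FPKM) and Mitf (154 to 32.8 FPKM), a transcription factor that also governs lysosomal genes, with a median of 0.47 that turned to -0.13 with the same sum. Ferritin and antioxidant genes had 15 of 30 higher and 1 lower (median 0.85), among them the heme oxygenase Hmox1 (25.8 to 126 FPKM, log2 ratio 2.25) and thioredoxin, Txn1 (252 to 2434 FPKM, log2 ratio 3.26), without named pseudogenes, and the cystine transporter Slc7a11 (31.2 to 10.9 FPKM) was the lower one. Of 13 zinc transporters 3 were higher and none lower, Slc39a3, Slc39a11 (2.48 to 8.77 FPKM) and Slc39a7 (46.05 to 100.3 FPKM), with a median of -0.12 that turned to 0.10 without genes that have a named pseudogene.

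Genes of cell death and the p53 response included several large differences. Of 27 apoptosis genes 7 were higher and 1 lower (median 0.51). The pore-forming Bax (26.9 to 313 FPKM, log2 ratio 3.49), Diablo (24.9 to 169 FPKM, log2 ratio 2.71), which relieves caspase inhibition, and Bad (12.6 to 48.6 FPKM, log2 ratio 1.87) promote death and were higher, and Bcl2, which opposes it, was lower (37.1 to 5.28 FPKM, log2 ratio -2.6). Of 21 p53 response genes 5 were higher and 1 lower (median 0.09, turning to -0.49 and -0.04 under the 2 scalings), with Ddit4 (14.7 to 108 FPKM, log2 ratio 2.79), Gadd45b (7.77 to 27.9 FPKM) and Phlda3 (20.2 to 65.5 FPKM) beside Bax and Cdkn1a. Of 27 immediate early and stress genes 5 were higher, such as Ier3 (8.71 to 45.5 FPKM), Ier2 (6.49 to 33.6 FPKM) and Junb (7.89 to 22.4 FPKM), and 3 lower, Nr4a2 (63.5 to 25.4 FPKM), Egr1 (6.91 to 2.49 FPKM) and Myc (median 0.08, turning to -0.51 and -0.06 under the 2 scalings). Chromatin modifiers had 7 of 36 higher, such as the acetyltransferase Kat2a (23.6 to 67.2 FPKM) and the neuronal BAF subunit Actl6b (listed at 0 in control and at 1.71 FPKM in knockdown), and 2 lower, Chd2 (55.4 to 21.8 FPKM) and Dnmt3a (28.5 to 11.8 FPKM, with a named pseudogene), with a median of -0.33. Actl6b also belongs to the 52 tested genes listed at 0 in control, all called higher.

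Among the innate immunity lists only class I antigen presentation had most of its tested members called higher. Of 23 listed class I antigen presentation genes 15 were higher and none lower, with a median of 1.34 (0.86 with the same sum). RT1-EC2, a class I gene at a shared locus that is not on this list, was lower (4.96 to 1.701 FPKM, log2 ratio -1.14). Tap1, a peptide transporter subunit, moved from 30.9 to 146 FPKM, log2 ratio 2.203, its docking protein Tapbp from 23.5 to 107 FPKM, log2 ratio 2.14 and RT1-CE10, a class I heavy chain, from 1.52 to 24.3 FPKM, log2 ratio 3.33. Class I heavy chain genes are near-identical, and with genes sharing a listed locus left out 7 members were higher. Of 50 interferon response genes 13 were higher and none lower (26.0%, background 15.4%), with a median of 0.40 that turned to -0.16 with the same sum. The other 37 were not called, and 16 log2 ratios lay below 0, such as that of Isg15 (-0.50). With the same sum 6 were higher and 9 lower. Higher were Ifi35 (22.4 to 175 FPKM, log2 ratio 2.91), the tetherin gene Bst2 (43.7 to 238 FPKM, log2 ratio 2.42), the antiviral synthetase Oas1a (104 to 418 FPKM, log2 ratio 1.99) and the transcription factors Irf7 (54.3 to 178 FPKM, log2 ratio 1.69) and Irf1 (21.5 to 56.2 FPKM, log2 ratio 1.35). Of 23 cytokine and chemokine genes 8 were higher, such as Ccl5 (4.95 to 26.3 FPKM) and Ccl2 (32.3 to 74.5 FPKM), and 1 lower, Tgfb2 (44.6 to 21.4 FPKM), with a median of 0.19 that turned to -0.37 with the same sum. The control carried an empty vector, so the part of a hairpin RNA in these values cannot be told apart from that of lost REST.

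The 15 largest falls, taken over genes with 1 FPKM or more in each group and 5 in one of them, were Agps, Hist2h4, Bcl2, Hist1h2ail, Rbm25, Trim44, fut10, Srek1, Mllt3, Hist3h2a, Mitf, Bmp4, Ak4, Rwdd1 and Acot13. Agps makes the ether bond of plasmalogens and moved from 539 to 57.98 FPKM, log2 ratio -3.19 (iQNP log2 ratio -0.98). The splicing factors Rbm25 (146 to 25.95 FPKM, log2 ratio -2.45) and Srek1 (279 to 58.3 FPKM, log2 ratio -2.24) and Mllt3, a subunit of the super elongation complex (218 to 45.7 FPKM, log2 ratio -2.23), were abundant in control. Each was over 100 FPKM in control and lay under 60 FPKM in knockdown. Trim44 moved from 322 to 62.5 FPKM, log2 ratio -2.35, the adenylate kinase Ak4 from 29.04 to 6.297 FPKM, log2 ratio -2.04 and the thioesterase Acot13 from 208 to 51.1 FPKM, log2 ratio -2.001. Other RNA processing genes in the same range, named after their values were seen, were the nonsense-mediated decay factors Upf3a (200.3 to 53.99 FPKM) and Upf3b (85.2 to 22.2 FPKM), Prpf38b (237 to 65.4 FPKM) and Pnn (163 to 46.4 FPKM). Picked for their falls, they do not describe RNA processing genes as a group. Of 39 spliceosome and hnRNP genes 15 were higher and 2 lower. At 100 to 300 FPKM in control 16.7% of all tested genes were lower.

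Higher and lower genes differed in the length of their locus, a feature the comparison did not use. The median span in the authors' table was 9176 bases for higher genes, 32026 for lower genes and 24480 for the rest. Of 710 genes spanning up to 3 kb, 33.9% were higher and 7.32% lower, with a median log2 ratio of 0.51. Of 891 genes spanning over 100 kb and up to 300 kb, 3.25% were higher and 11.3% lower, with a median of -0.41. Spearman's rho between log2 ratio and span across the 9430 genes was -0.35, and -0.34 over the 8116 without a named pseudogene, as a description, since genes of the same libraries are not independent. Shorter loci thus lay higher and longer ones lower in every bin but the last, genes over 300 kb, whose median was -0.33. The log2 ratio also went with control level, with a median of 0.20 for genes from 1 to 3 FPKM in control and -0.33 from 100 to 300 FPKM. Of lists named above, axon guidance genes had a median span of 182350 bases and cytosolic ribosomal protein genes one of 2936 bases. The part of span in any list's median was not tested.

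**Figure D4:**
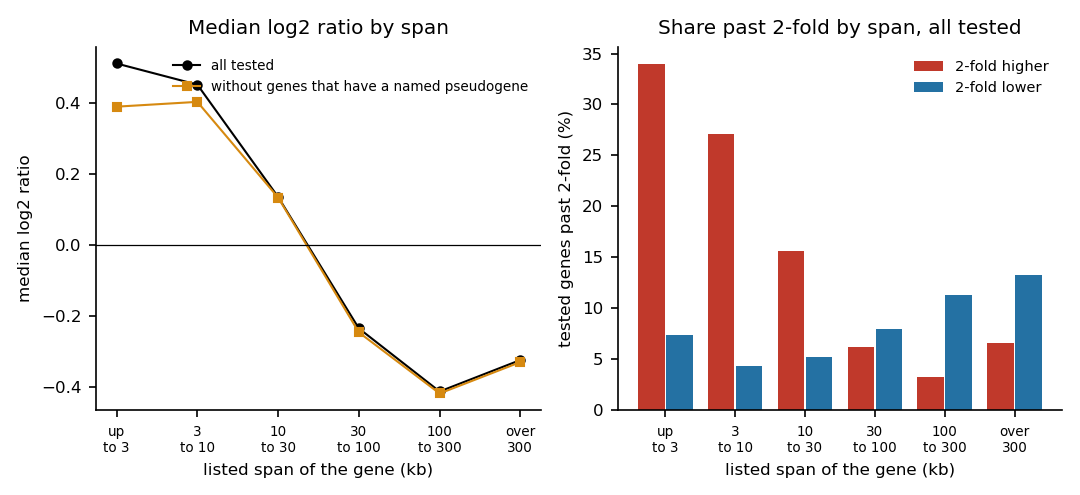
Left, median log2 ratio in TAP cells by span of the locus in kb, for all tested genes and for those without a named pseudogene. Right, the percentage of all tested genes past 2-fold higher and lower in the same bins, in which the median goes from 0.51 for loci up to 3 kb to -0.41 for those from 100 to 300 kb.

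Markers of cell types other than neural progenitors had no direction common to all types. Of 8 endothelial genes in the table none was tested, with a summed level of 0.322 FPKM in control and 1.03 in knockdown. Aif1, of microglia, was listed at 0 in both groups, Ptprc, of leukocytes, stood at 0.0758 and 0.0418 FPKM, and 14 of 17 microglia and leukocyte genes were not tested. Of the other 3, Ctss (2.399 to 5.87 FPKM) was higher and P2ry12 (16.3 to 7.58 FPKM) lower. Of 7 astrocyte genes tested 1 was higher, Fgfr3, and 1 lower, the gap junction gene Gja1 (7.97 to 3.31 FPKM), with a median of 0.00 that turned to -0.60 with the same sum. Gfap stood at 1.06 and 1.36 FPKM. Oligodendrocyte lineage genes were expressed in both groups, with Sox10 at 615 and 348 FPKM and Mbp at 132 and 97.4. Of 11 of them tested Olig1 was higher (53.7 to 175 FPKM, log2 ratio 1.69) and Bcas1 lower (993 to 406 FPKM, log2 ratio -1.29). The median was -0.61, with 9 log2 ratios below 0 and 2 above. With the same sum 8 were lower and 1 higher, with a median of -1.20. Of 3 fibroblast and mural genes tested S100a4 (32.4 to 154 FPKM) and Tagln (0.219 to 1.75 FPKM) were higher, while the defining Pdgfrb (0.161 and 0.188 FPKM) and Col1a1 (0.0946 and 0.0594) were near 0 in both groups. In bulk RNA fewer cells of a type and less RNA per cell cannot be told apart.

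The knockdown in TAP cells and that in iQNP cells, made with separate control libraries and separate Cuffdiff runs, gave similar log2 ratios. Across 9252 genes tested in both tables Pearson's r was 0.93 and Spearman's rho 0.86, as a description across genes that share their libraries within each condition, and over the 7942 without a named pseudogene they were 0.87 and 0.85. Of genes higher in TAP cells and tested in both, 1087 were also higher in iQNP cells and 349 lay between the thresholds there. Of genes lower in TAP cells, 139 were also lower in iQNP cells and 474 lay between. In iQNP cells 14.3% of tested genes were higher and 3.07% lower. A call in one condition and not in the other does not show a difference between them, which could not be tested with 1 value per group.

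**Figure D5:**
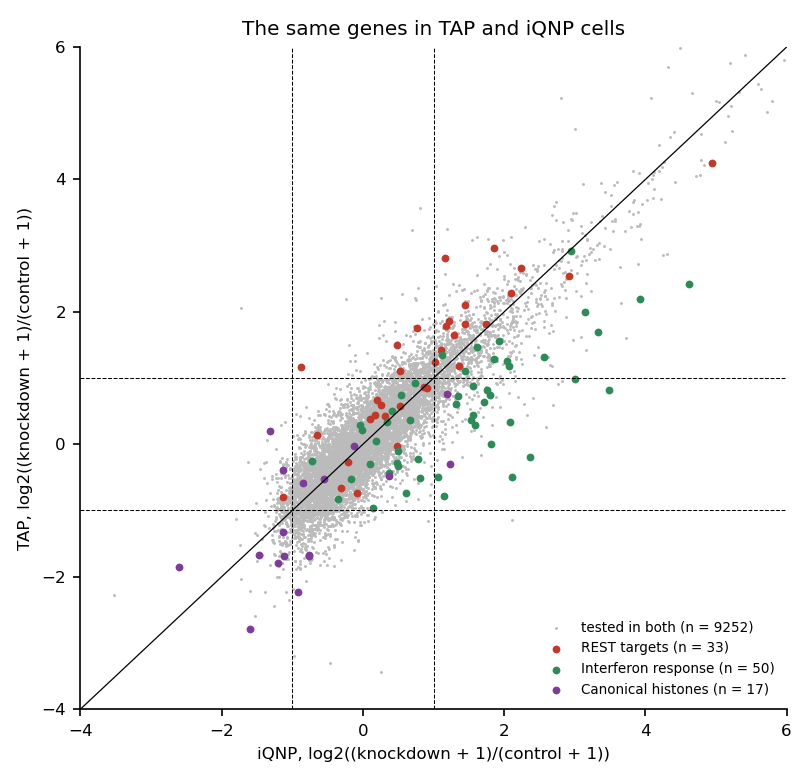
Log2 ratio of knockdown to control in iQNP cells (horizontal) and TAP cells (vertical) for genes tested in both, with REST targets, interferon response genes and canonical histones coloured, a solid line at equal ratios and dashed lines at 2-fold. Interferon response genes (medians 1.39 in iQNP and 0.40 in TAP) lie mainly below the solid line, and 52 genes fall outside the axes, which run from -4 to 6.

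Only 2 genes were called in opposite directions. Snhg4, a host gene of small nucleolar RNAs, moved from 8.43 to 38.5 FPKM in TAP and from 56.3 to 16.3 FPKM in iQNP cells. RT1-EC2, at a shared locus, was at 4.96 to 1.701 FPKM in TAP and listed at 0 in iQNP control. Among genes with the largest differences between the conditions, S100a6, a calcium-binding protein, was at 3.46 to 40.9 FPKM in TAP and 598 to 969 FPKM in iQNP cells, and Anxa1 at 2.37 to 30.98 FPKM and 202 to 460.1 FPKM. Both had far lower levels in TAP control than in iQNP control. Nrep, expressed in regenerating neurons, was at 4.41 to 23.9 FPKM in TAP and 23.3 to 19.5 FPKM in iQNP cells, and Sez6 at 7.74 to 40.98 FPKM and 74.1 to 109 FPKM. Socs3, a feedback inhibitor of cytokine receptors, was at 8.32 to 41.4 FPKM and 8.34 to 14.7 FPKM.

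Interferon response genes were higher or between the thresholds in both conditions, with none lower. In iQNP cells 30 of 50 were higher with a median of 1.39, against 13 of 50 and 0.40 in TAP cells. Isg15, a ubiquitin-like antiviral protein, stood at 2566 to 1818 FPKM in TAP and 629 to 2709.6 FPKM in iQNP cells. Mx1 stood at 480.1 to 422 FPKM and 67.3 to 349 FPKM, and Ifit3 at 44.7 to 79.7 FPKM and 8.56 to 106 FPKM. The control level of these 3 genes was several times higher in TAP than in iQNP cells and the knockdown levels were closer together, in tables that were normalized separately. REST targets were at a median of 1.17 in TAP and 0.77 in iQNP cells, stem and progenitor genes at -0.46 and -0.48, and canonical histones at -1.08 and -0.91.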

How the data were processed

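RNA was measured in HCN cells by sequencing of total RNA depleted of ribosomal RNA (HiSeq). Per the submitters' processing notes and the study's methods, the authors mapped reads to the rat build rn4 with TopHat2 and compared groups with Cuffdiff (versions not given in the sources used here). The authors deposited FPKM, 1 pooled value per gene and group, in 2 tables marked as revised; what was revised is not stated. Their own fold changes, test statistics, p-values, q-values and marks of significance were not used. Groups came from the labels, and 0 columns of per-sample values were left unused. No depth per library was available to this work, so the precision of a value is unknown.

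Genes with status OK were kept (7037 were marked NOTEST and 1 HIDATA). The log2 ratio used a pseudocount of 1 FPKM, and calls needed 2-fold. No test was made. The 49 gene lists and the rules were chosen with earlier results of these data known. Named genes were Rest, the 15 largest differences in each direction (at least 5 FPKM in one group, 1 in both), the first 2 members and up to 6 members past 2-fold of each list, up to 10 genes per direction with a REST site within 10 kb, and members beside the threshold. Names were left out for length, and a few genes are not reported here. REST sites in TAP cells came from the study's ChIP-seq annotation, and sites in iQNP cells, held here only in part, were not used. Per the study's methods, peaks were kept where 2 runs overlapped. One run used a mix of 2 homemade antibodies and the other a commercial antibody, with 1 sample each. Promoters and pseudogene names came from RefSeq (GRCr8), whose symbols matched 9255 of 9430 genes (98.1%). A gene was said to have a named pseudogene where RefSeq lists one under its symbol, and to share a locus where the authors' table lists the same locus for another gene (739 tested genes). Alternatives varied the pseudocount, the minimum level, the scaling, the fold and the genes kept. Those without shared loci, over 1 FPKM in control, and with other RE1 spacings were chosen after seeing the data. Calculations used Python 3.11.15, numpy 2.4.6, pandas 2.3.3 and matplotlib 3.10.9 and were tested on simulated data.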

Additional observations from a re-analysis of the deposited data

How the results depend on the processing

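With the same sum of FPKM the calls went to 655 higher and 2415 lower, lower stem and progenitor genes from 6 to 13, higher genes with a REST site at 1 to 10 kb from 16 to 4, and genes called in both conditions to 519 higher and 1469 lower. With a fold of 4 the counts were 381 higher and 24 lower, 7 REST targets, 4 granins, 8 class I genes, 17 oxidative phosphorylation genes, 2 lower histones, 0 lower stem and progenitor genes, and 13 and 1 genes with a site within 1 kb and at 1 to 10 kb. With at least 1 FPKM in both groups 12 of 25 REST targets, 4 of 10 granins and 20 of 38 genes with a site within 1 kb were higher, and 20 of 38 of the latter with over 1 FPKM in control. Without genes that have a named pseudogene 17 of 32 oxidative phosphorylation genes were higher (42 of 69 with all genes) and no cytosolic ribosomal protein gene was left, and without shared loci 7 of 12 class I genes were higher (15 of 23 with all genes), so fewer genes were tested in both. A pseudocount of 0.1 gave 216 genes lower in both conditions. RE1 matches among higher genes numbered 13 with up to 4 mismatches, 3 with up to 2, and 3 with the parts 0 to 10 bases apart.

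Among the 474 named genes a value past 2-fold could not change sign under the alternatives run. The scalings shift a log2 ratio by at most 0.61, a pseudocount keeps its sign, and leaving genes out does not alter it. No list median past 2-fold changed sign, while several within 2-fold did, those under a scaling being given with each list. A median scaled to 0 and sums without ribosomal protein genes shift ratios by 0.01 and -0.15. Both lie under the tolerance of 0.25 log2 units, so it was fixed beforehand that they moved none of the 474. The same sum moved 472. No paired analysis was possible because each group has a single pooled value, and for the same reason leaving out each library in turn was not run. Protein length, planned beside span, was not run, since no protein table was used.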
